A study of Rattus norvegicus with 4 samples.

Results

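The genes described here in rat embryonic stem cells (ESCs) are 10 regulators and targets of ERK signalling: the Sprouty genes *Spry1*, *Spry2* and *Spry4*, the Spred genes *Spred1* and *Spred2*, *Il17rd*, the ETS factor genes *Etv4* and *Etv5*, and the immediate early genes *Egr1* and *Fos*. They were taken by symbol from the deposited table, where each of the 10 symbols matched 1 of the 34773 listed genes. Of these 10, 8 had enough counts to be tested, among 15028 genes tested in all, and *Egr1* and *Fos* did not. Poly(A) RNA was sequenced from 4 libraries to ask what changes when *Thop1*, the gene of the peptidase thimet oligopeptidase, is disrupted. The WT group is 1 library of the *Rex1*-GFP reporter line DA-5-3, and the *Thop1*-KO group is 1 library from each of 3 subclones (#1, #2 and #3) that were picked after Cas9 editing of that line. The reporter is shared by all 4 libraries. Each subclone is a single clone, and the labels give no culture condition. By the study's methods, rat ESCs were kept on feeders in 2i/LIF, which contains the MEK inhibitor PD0325901, the GSK3 inhibitor CHIR99021 and the cytokine LIF. The series' design text calls the sequenced cells haploid, whereas the study uses DA-5-3 as a diploid line.

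In the ERK pathway a growth factor receptor activates Ras, which switches on the kinases Raf, MEK and ERK in turn. Active ERK raises the transcription of immediate early genes such as *Egr1* and *Fos*, of the *Etv4* and *Etv5* factors, and of genes whose products dampen the pathway again. Sprouty proteins act between the receptor and Raf, Spred proteins bring the Ras inhibitor neurofibromin to the membrane, and Il17rd, also called Sef, acts at the receptor and at MEK and ERK. In ESCs, ERK activity driven by FGF4 pushes cells out of the naive state, and PD0325901 is used to hold them in it.

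The counts on genes summed to between 15405499 and 17936544 per library. *Thop1* was at 370 in WT and at 110, 92.5 and 149 in #1, #2 and #3, in TMM-normalised CPM (counts scaled to the library's effective size, per megaread). The ESC marker *Pou5f1* was at 4794 CPM in WT and at 4842, 3889 and 4776 CPM in #1, #2 and #3. Of 8 tested entries for pluripotency genes, with 2 for *Dppa3*, *Esrrb* was the only one called by edgeR, at 15.9 CPM in WT and 330, 286 and 328 CPM in the subclones (log2 fold change 4.30 ± 0.30 SE, adjusted p = 0.00678). Of 4 tested early lineage markers, *Nes* was the only one called, at 8.48 CPM in WT and 0.358, 0.735 and 0.167 CPM in the subclones (log2 fold change -4.31 ± 0.68 SE, adjusted p = 0.0147 in edgeR). Over all genes tested, edgeR called 8.62% as higher and 5.17% as lower, so 1 call in a list this short is no result about the list. The summed CPM of 11 fibroblast markers was 209 in WT and 329, 662 and 421 in #1, #2 and #3, most of it from *Col1a1*, while the fibroblast genes *Dcn*, *Thy1* and *Lum* had 0 counts in all 4 libraries. None of the 8 tested fibroblast markers passed edgeR's test, 2 had an unadjusted p-value under 0.05, and DESeq2 called 1 and limma 0. By adjusted p-value, edgeR called 13.8% and DESeq2 21.5% of the genes each tested. Counts at an unadjusted p-value, here and below, have no such share beside them, and more genes pass that looser rule. WT lay below all 3 subclones for 6 of these 8 markers, above all 3 for *Acta2* and inside their range for *Twist2*. Over all genes tested, WT lay below all 3 for 38.1% and above all 3 for 37.6%. Among the 6, *Pdgfra* and *Postn*, with 2 and 3 counts in WT, had enough counts to be tested through the subclones alone. The median log2 fold change of the 8 markers was above the 0.06 of all genes tested. *Col3a1* was at 6.39 CPM in WT and at 16.2, 80.0 and 36.9 CPM in #1, #2 and #3. The part of feeder cells in the results below was not tested, and in bulk RNA fewer cells of a type and less RNA per cell cannot be told apart. With 1 WT library, the genotype and anything else particular to that culture or library cannot be told apart, and for 1 library against 3 the smallest one-sided p of an exact permutation test is 0.25.

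Of the 8 tested genes, 5 differed between *Thop1*-KO and WT, and they went both ways. *Il17rd*, *Spry1* and *Spred2* were up-regulated in *Thop1*-KO and *Etv4* and *Spry4* were down-regulated, where a gene was called if its Benjamini-Hochberg adjusted p, taken over all genes tested with the quasi-likelihood F-test of edgeR, was below 0.05. *Etv5*, *Spry2* and *Spred1* did not pass. In all, 5 of 8 were called where the test called 13.8% of all genes tested; 3 were higher, beside a background of 8.62%, and 2 lower, beside 5.17%. The genes were picked with earlier results of these data known, so these shares describe the list and are no test of it. *Spry1*, with 1 count in WT, passed the filter on low counts through the subclones alone and could be called only as higher. The median log2 fold change of the 8 genes was 0.15, near the 0.06 of all genes tested. The WT library lay below all 3 subclones for 4 of the 8 genes and above all 3 for another 3, against 38.1% and 37.6% of all genes tested. DESeq2's Wald test, which called 21.5% of the genes it tested, called the same 5. Without subclone #3 the edgeR test kept only *Il17rd*, while the calls over all genes fell from 2072 to 418; without #2 it called these 5 and *Etv5*, and 5572 genes in all.

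**Figure D1:**
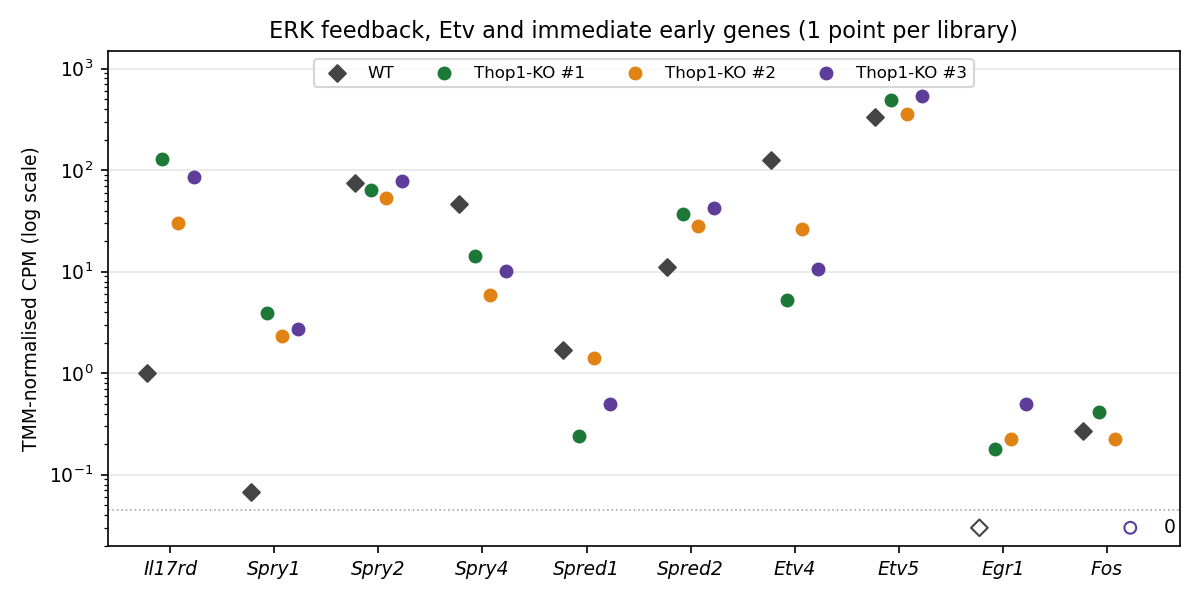
TMM-normalised CPM (log axis) of each gene in the WT library (diamonds) and in the libraries of the 3 *Thop1*-KO subclones (circles); open symbols under the dotted line are libraries with 0 counts. *Il17rd* rises from 1.01 CPM in WT to between 30.4 and 128 CPM in the subclones, *Etv4* drops from 125 CPM to between 5.25 and 26.4 CPM, and *Egr1* and *Fos* stay under 1 CPM in every library.

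*Il17rd* encodes a transmembrane protein with an intracellular SEFIR domain that restrains FGF signalling. The deposited annotation places it (ENSRNOG00000021966) on chromosome 16, plus strand, bases 2670618 to 2731808, with no other gene over it. Its counts were 15 in WT and 2142, 538 and 1534 in #1, #2 and #3, or 1.01 CPM against 128, 30.4 and 85.4 CPM. Every subclone was thus far above WT, and the subclones themselves spread widely. The mean of the subclones was 81.2 ± 48.8 CPM (SD, n = 3). In the edgeR fit this was a log2 fold change of 6.32 ± 1.07 (SE) at an adjusted p of 0.0173. Leaving out each subclone in turn gave 5.81 to 6.71, and *Il17rd* was called under all 11 alternatives run.

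The 3 Sprouty genes behaved differently from each other. *Spry1* (ENSRNOG00000025371, chromosome 2, 124400679 to 124405331, plus strand) had 1 count in WT and 66, 41 and 49 counts in #1, #2 and #3, or 0.067 CPM against 3.94, 2.32 and 2.73 CPM. All subclones were above WT, but the level stayed low. The summed subclone counts stood to WT in a ratio of 44.2 after scaling, with an exact 95% interval from 7.82 to 1758 that covers counting error only. Its log2 fold change fitted by edgeR, 5.33 ± 0.97 (SE) with an adjusted p of 0.0203, depends on the prior count, since WT had a single read. *Spry1* passed the filter on low counts through the subclones alone. Without #3 its adjusted p-value was 0.0658 in edgeR.

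*Spry4* (ENSRNOG00000013851, chromosome 18, 32594958 to 32609864, plus strand in the deposited annotation and minus strand in the RefSeq build used below) moved the other way. It had 685 counts in WT and 240, 105 and 183 counts in #1, #2 and #3, or 46.1 CPM against 14.3, 5.94 and 10.2 CPM. The subclones were thus at 31.0%, 12.9% and 22.1% of WT, with no overlap. By edgeR it fell by 2.18 ± 0.45 (SE) on the log2 scale, with an adjusted p of 0.0278. With limma on log2(FPKM + 0.1) its adjusted p-value was 0.0598, and without #3 it was 0.0792 in edgeR.

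*Spry2*, the most abundant of the 3 per unit of length, did not pass the test. It had 74.2 CPM in WT and 63.3, 53.0 and 79.0 CPM in #1, #2 and #3, so that WT lay inside the range of the subclones. The edgeR estimate was a log2 fold change of -0.19 ± 0.30 (SE), adjusted p = 0.680. *Spry2* (ENSRNOG00000010058, chromosome 15, 90172975 to 90175802, minus strand) lies inside the span of *Mycbp2* on the same strand, so its counts are uncertain wherever the exons of both genes coincide.

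Promoters were compared for the genes called, because these moved in opposite directions, and for *Egr1*. RefSeq promoter windows on the build GRCr8, from 250 bases before to 50 after each gene's start, were at hand for 8 of the 10 genes, with *Etv4* and *Fos* not matched. They are printed without the 50 bases after the start, 5′ to 3′ on the gene's strand, with the bases of a motif match in capitals.
*Spry4* promoter (chr18:30702547-30702796, minus strand): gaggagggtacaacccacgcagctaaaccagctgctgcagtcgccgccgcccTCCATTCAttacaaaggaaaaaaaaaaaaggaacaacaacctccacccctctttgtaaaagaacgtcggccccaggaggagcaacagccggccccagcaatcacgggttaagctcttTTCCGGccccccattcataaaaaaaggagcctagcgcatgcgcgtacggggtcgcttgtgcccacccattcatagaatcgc
*Il17rd* promoter (chr16:2234922-2235171, plus strand): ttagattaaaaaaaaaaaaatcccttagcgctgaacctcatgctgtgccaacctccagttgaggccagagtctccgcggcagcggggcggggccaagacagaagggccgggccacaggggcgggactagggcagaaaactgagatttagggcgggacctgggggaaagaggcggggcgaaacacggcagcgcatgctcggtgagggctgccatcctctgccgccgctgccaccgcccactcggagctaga
*Spry1* promoter (chr2:122485097-122485346, plus strand): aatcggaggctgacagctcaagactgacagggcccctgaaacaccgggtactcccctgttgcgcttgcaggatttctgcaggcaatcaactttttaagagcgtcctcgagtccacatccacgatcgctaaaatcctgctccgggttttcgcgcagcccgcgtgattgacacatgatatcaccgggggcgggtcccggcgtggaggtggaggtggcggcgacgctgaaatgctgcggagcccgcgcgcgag
*Spred2* promoter (chr14:98350327-98350576, plus strand): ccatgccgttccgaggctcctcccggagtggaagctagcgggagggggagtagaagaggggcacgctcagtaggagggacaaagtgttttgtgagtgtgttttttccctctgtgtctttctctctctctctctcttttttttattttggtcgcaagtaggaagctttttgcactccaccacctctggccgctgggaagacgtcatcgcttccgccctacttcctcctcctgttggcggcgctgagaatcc
*Egr1* promoter (chr18:26736828-26737077, plus strand): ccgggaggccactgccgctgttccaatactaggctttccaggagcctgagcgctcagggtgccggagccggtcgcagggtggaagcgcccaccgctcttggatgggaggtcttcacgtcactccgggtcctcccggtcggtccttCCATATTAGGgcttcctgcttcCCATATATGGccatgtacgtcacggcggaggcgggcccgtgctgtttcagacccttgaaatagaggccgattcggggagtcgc

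A set of 6 motifs was searched on both strands of the full windows. The site of Cic, a repressor of *Etv4*, *Etv5* and other ERK targets that ERK relieves, was searched as TCAATGAA, TCAATGGA, TGAATGAA and TGAATGGA. It was found in the window of *Spry4* only among the 8 genes, with its match beginning 198 bases before the start, and 4.26% of all 33469 windows held it. The ETS core CCGGAA was found in *Spry4*, 81 bases before the start, and in *Spry2*, beside 15.0% of all windows. In *Spry2* it lay in the window printed for chr15:89111927-89112176, while the window of another *Spry2* start, chr15:89109843-89110092, did not hold it. The CArG box, the core bound by serum response factor, was found in the *Egr1* window in 2 places, 105 and 83 bases before the start, beside 1.64% of all windows. The cyclic AMP response element TGACGTCA, the AP-1 sites TGACTCA and TGAGTCA, and the Egr site GCGTGGGCG were found in none of the 8 genes, beside 1.83%, 4.63% and 0.544% of all windows. The up-regulated genes *Il17rd*, *Spry1* and *Spred2* held none of the 6 motifs in this window, and neither did *Spred1* and *Etv5*, which were not called. Since *Etv4* had no window, the down-regulated side rests on *Spry4* alone. A match in these letters is a description of the sequence, and binding was not measured.

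**Figure D2:**
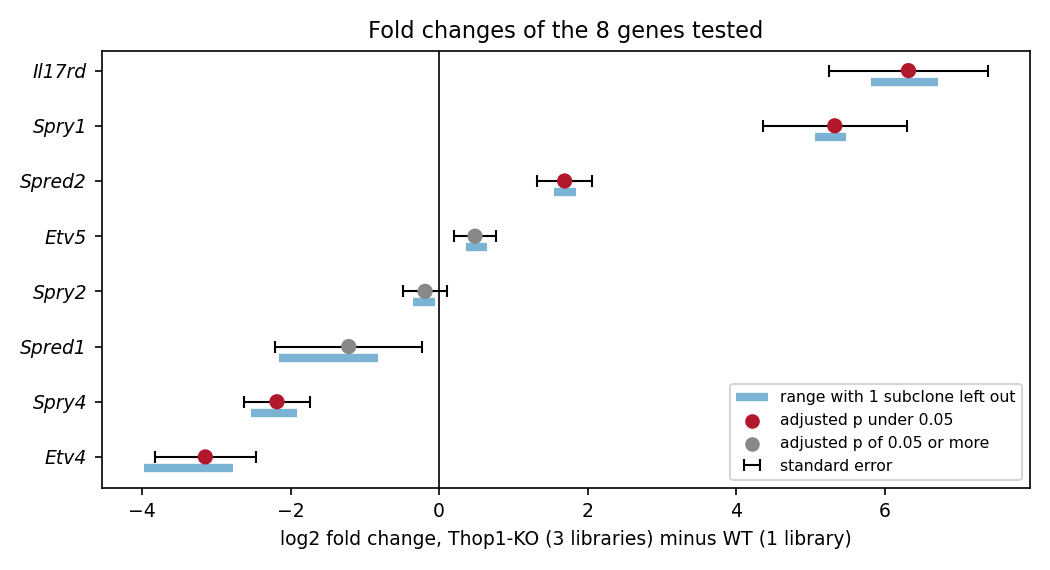
Log2 fold change of the 8 tested genes (*Thop1*-KO, 3 libraries, minus WT, 1 library), with the standard error as black bars and the range with each subclone left out as blue bars; red points have an adjusted p-value under 0.05 in edgeR's quasi-likelihood test. *Il17rd*, *Spry1* and *Spred2* lie above 0 and *Etv4* and *Spry4* below it, and no range with a subclone left out crosses 0.

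The Spred pair also split. *Spred2* (ENSRNOG00000004888, chromosome 14, 104191517 to 104290456, plus strand) had 165 counts in WT and 617, 497 and 766 counts in #1, #2 and #3. In CPM, 11.1 in WT stood against 36.8, 28.1 and 42.6, a mean of 35.8 ± 7.31 (SD, n = 3), and every subclone was above WT. *Spred2* rose by 1.69 ± 0.37 (SE) on the log2 scale in edgeR, at an adjusted p of 0.0332. Without #3 the adjusted p-value was 0.137 in edgeR, at a log2 fold change of 1.55. *Spred1* (ENSRNOG00000005209, chromosome 3, 108795235 to 108857556, plus strand), which shares the EVH1 and Sprouty domains of *Spred2*, had 25 counts in WT and 4, 25 and 9 in #1, #2 and #3, or 1.68 CPM against 0.239, 1.41 and 0.501 CPM. WT was above all subclones, but #2 lay close to it: the ratio of #2 to WT was 0.841 (exact 95% interval from 0.463 to 1.53, counting error only), and that of #1 to WT was 0.142 (0.0359 to 0.411). *Spred1* did not pass, with an edgeR log2 fold change of -1.22 ± 0.99 (SE) and an adjusted p of 0.414.

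*Etv4* and *Etv5* encode closely related ETS transcription factors of the PEA3 type, which act downstream of FGF and ERK. *Etv4* (ENSRNOG00000020792, chromosome 10, 89685058 to 89700283, minus strand) had 1856 counts in WT and 88, 467 and 190 counts in #1, #2 and #3. In CPM, 125 in WT stood against 5.25, 26.4 and 10.6 in the subclones, or 4.20%, 21.2% and 8.47% of WT. The groups did not overlap, although the subclones spread over a wide range. The edgeR log2 fold change of *Etv4* was -3.15 ± 0.68 (SE) at an adjusted p of 0.0318, and it ran from -3.98 to -2.77 when subclones were left out in turn. It lost its call without #3 (adjusted p = 0.0656 in edgeR) and with limma on log2(FPKM + 0.1) (adjusted p = 0.0588).

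*Etv5* (ENSRNOG00000001785, chromosome 11, 82194657 to 82252139, plus strand) did not follow *Etv4*. It was at 331 CPM in WT and at 494, 358 and 535 CPM in #1, #2 and #3, a mean of 462 ± 93.0 CPM (SD, n = 3). WT was the lowest library, close to #2. *Etv5* did not pass, with a log2 fold change of 0.48 ± 0.29 (SE) and an adjusted p of 0.272 in edgeR. Without #2 it passed in edgeR, with a log2 fold change of 0.64 and an adjusted p-value of 0.0231. The third gene of this type, *Etv1*, went with *Etv4*: 7.81 CPM in WT stood against 0.417, 1.24 and 0.724 CPM, which edgeR put at a log2 fold change of -3.28 ± 0.60 (SE), adjusted p = 0.0211. *Etv1* lost its call without #3 (adjusted p = 0.0739 in edgeR) and with limma on log2(FPKM + 0.1) (adjusted p = 0.0521).

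The immediate early genes had almost no reads. *Egr1*, a zinc finger factor that serum response factor switches on within minutes of ERK activation, had 0 counts in WT and 3, 4 and 9 counts in #1, #2 and #3. *Fos*, a subunit of the AP-1 factor, had 4 counts in WT and 7, 4 and 0 in the subclones. Neither reached 1 CPM in any library, and 0 counts in WT allow up to 0.202 CPM by a limit of 3 counts. *Egr1* was higher than WT in 3 of 3 subclones, but with no filter on low counts its adjusted p-value was 0.217 in edgeR, and that of *Fos* was 0.913. By counting error alone, the summed subclone counts of *Egr1*, 16 against 0 in WT, stood to WT in a ratio with an exact 95% lower bound of 1.09 after scaling, and those of *Fos* in a ratio of 0.780 (exact 95% interval from 0.231 to 3.36). Both lie apart from other genes of the table, *Egr1* (ENSRNOG00000019422) on chromosome 18 from 27657628 to 27661429 and *Fos* (ENSRNOG00000008015) on chromosome 6 from 109300433 to 109303299.

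Levels of different genes were compared per unit of exon length with the deposited FPKM values. *Etv5* was the highest of the 10 genes in every library, at 83.7 FPKM in WT and 126, 90.7 and 134 FPKM in #1, #2 and #3. In WT it was followed by *Etv4* at 50.9 FPKM and *Spry2* at 40.5 FPKM, while *Il17rd* ranked 7th at 0.307 FPKM. In the subclones *Il17rd* ranked 2nd, 5th and 3rd in #1, #2 and #3, at 39.1, 9.25 and 25.6 FPKM, and *Etv4* ranked 6th, 4th and 5th. The order of *Il17rd* and *Etv4* was thus exchanged in #1 and #3, while in #2 they lay close, at 9.25 and 10.8 FPKM.

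Within the Etv family the makeup differed more than the total. The summed FPKM of *Etv1*, *Etv4* and *Etv5* was 136 in WT and 128, 102 and 138 in #1, #2 and #3. *Etv4* made up 37.5% of it in WT and 1.68%, 10.6% and 3.08% in the subclones, and *Etv5* made up the rest but for at most 0.821%. For the Sprouty genes the sum was 50.05 FPKM in WT and lower in every subclone, at 39.3, 31.1 and 45.7 FPKM. *Spry2* held 80.8% of it in WT and 88.4%, 93.1% and 93.1% in #1, #2 and #3, the share of *Spry4* being 19.1% against 7.61%, 3.97% and 4.57%. The sum of the Spred pair went the other way, from 7.48 FPKM in WT to 21.7, 17.2 and 24.8 FPKM in the subclones. *Spred2* made up 86.4% or more of it in every library. These sums and shares are descriptions with no test.

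**Figure D3:**
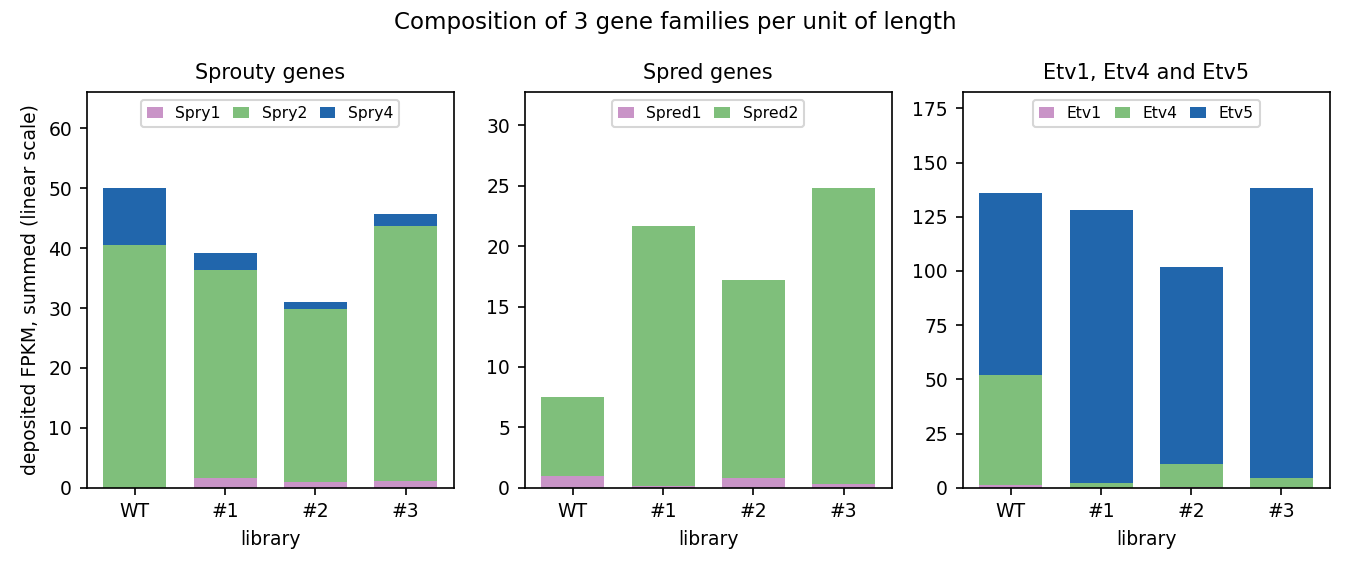
Deposited FPKM values (linear axis from 0) summed over the Sprouty genes, the Spred genes, and *Etv1*, *Etv4* and *Etv5*, as stacked bars for WT and the 3 *Thop1*-KO subclones, 1 library each. The *Etv* total lies between 102 and 138 FPKM in all libraries while the *Etv4* part shrinks from 50.9 FPKM in WT to between 2.15 and 10.8 FPKM, and the Spred total is 7.48 FPKM in WT and at least 17.2 FPKM in each subclone.

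Among the 7 genes with at least 10 counts in every subclone, *Etv4* and *Il17rd* differed most between subclones. *Etv4* was 5.03 times higher in its highest subclone, #2, than in its lowest, #1, and 1.41% of the 12577 genes with at least 10 counts in every subclone spread as widely. For *Il17rd* the highest, #1, stood 4.20 times above the lowest, #2, and 2.33% of those genes spread as widely, beside a median ratio of 1.47. *Spry4* differed by 2.41 times, and *Spry1*, *Spry2*, *Spred2* and *Etv5* by 1.49 to 1.70 times. From low to high, *Il17rd* and *Spry1* ordered the libraries WT, #2, #3 and #1, an order that 12.2% of all genes tested had, and *Etv4* and *Spred1* ordered them in reverse, as did 11.8%. Subclone #2 was nearest to WT in *Il17rd*, *Spry1*, *Etv4*, *Etv5*, *Spred1* and *Spred2* but farthest from it in *Spry4* and *Spry2*. It was nearest to WT over the genes as a whole too, where the chi-square per degree of freedom against WT was 125 for #2, 184 for #1 and 173 for #3. Subclone #2 was also the library with the highest fibroblast marker sum, 662 CPM, and the highest summed early lineage markers, 46.5 CPM against 40.2 in WT and at most 12.6 in #1 and #3. Most of that sum was *Cdx2*, at 24.3 CPM in WT and 3.34, 35.9 and 4.95 CPM in #1, #2 and #3, while *Nes* was highest in WT and *Irx3* lay between 2.15 and 2.42 CPM in all libraries. The part of either marker sum in the spread was not tested, and with 1 library per subclone a difference between subclones could not be tested either.

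The genes closest to *Il17rd* in their pattern over the 4 libraries were *Trib1*, *Bicdl2* and *Ypel2*. Likeness was the root mean square distance of centred log2(CPM + 0.1) values, which was 0.35, 0.38 and 0.48. *Trib1* was at 0.606 CPM in WT and at 44.5, 18.8 and 41.6 CPM in #1, #2 and #3. *Bicdl2* had 0 counts in WT and 12.4, 1.53 and 4.84 CPM in the subclones, and *Ypel2* had 0 counts in WT and 5.90, 3.45 and 6.57 CPM. All 3 were picked by this distance, so being low in WT and lowest among the subclones in #2, like *Il17rd*, follows from the choice. With 0 counts in WT, the distances of *Bicdl2* and *Ypel2* also depend on the added 0.1.

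Of the other genes of the pathway, 4 lists were read from the same fit. Among 9 paralogues (*Spry3*, *Spred3*, *Etv1*, *Egr2*, *Egr3*, *Egr4*, *Fosb*, *Fosl1* and *Fosl2*), 4 were tested, and *Etv1* was the only one called. *Spry3*, *Fosb*, *Egr2*, *Egr3* and *Egr4* had at most 4 counts in any library. The median log2 fold change of the 4 tested paralogues was 1.09, while that of *Etv1* was -3.28. *Spred3*, *Fosl1* and *Fosl2*, with 13, 4 and 1 counts in WT, rose in the fit without being called. *Fosl1* and *Fosl2* passed the filter on low counts through the subclones alone, so the median of the 4 is partly set by that filter. Over all genes tested, edgeR called 13.8%.

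Of the 21 genes read on the route from the receptor to ERK, all were tested, 3 rose and 0 fell by edgeR, 6 had an unadjusted p-value under 0.05, and the median log2 fold change was 0.55 beside 0.06 over all genes tested. The 3 calls of 21 stand beside the 13.8% called over all genes in both directions, so their share is near the background. That 13.8% is no measure for the 6, since more genes pass the looser rule of an unadjusted p-value. DESeq2 called 4 of the 21, beside 21.5% of all genes it tested, and limma called 1 with either pseudocount. *Gab1*, a docking protein under receptor kinases, was at 9.42 CPM in WT and 66.2 ± 8.60 CPM (SD, n = 3) in the subclones, a log2 rise of 2.81 ± 0.33 (SE) with an adjusted p of 0.00767 in edgeR, and its span overlaps AABR07043601.3. *Mapk3*, which encodes ERK1, was at 266 CPM in WT and 315, 209 and 277 CPM in the subclones, where edgeR gave an adjusted p of 0.989. The scaffold gene *Ksr1* had 1 count in WT and 36, 46 and 25 in the subclones, a ratio of 30.3 with an exact 95% interval from 5.33 to 1209 that covers counting error only (adjusted p = 0.0343 from edgeR). Like *Spry1*, it passed the filter on low counts through the subclones alone. *Cbl*, a ubiquitin ligase that binds Sprouty2, had a log2 rise of 2.04 and an adjusted p of 0.0498 in edgeR, and it lost its call under 6 of the 11 alternatives. *Nf1*, the neurofibromin gene through which Spred proteins act, was at 1.82 CPM in WT and 2.33, 3.56 and 2.95 CPM in the subclones (adjusted p = 0.403 from edgeR). Without #3, *Ksr1* had an adjusted p-value of 0.0860 in edgeR, and limma gave *Ksr1* adjusted p-values of 0.113 and 0.0615 with pseudocounts of 1 and 0.1.

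Of 18 listed genes that act on or with the *Etv*, *Egr1* and *Fos* genes or proteins, 15 were in the table and tested, 1 rose and 0 fell by edgeR, 5 had an unadjusted p-value under 0.05, and DESeq2 called 2. Both counts of calls are below the background shares of 13.8% in edgeR and 21.5% in DESeq2. The 5 at an unadjusted p-value have no such share beside them. The one called was *Mrtfa*, a coactivator of serum response factor, at 13.2 CPM in WT and 34.4, 43.4 and 43.2 CPM in the subclones, a log2 rise of 1.61 ± 0.32 (SE) with an adjusted p of 0.0270 in edgeR. Without #3 its adjusted p-value was 0.125 in edgeR, and its span overlaps AABR07058524.1. *Cic* and *Srf*, whose sites were searched in the promoters, were named after their values were seen. *Cic* was at 200.2 CPM in WT and 262, 229 and 214 CPM in the subclones (adjusted p = 0.513 from edgeR), and *Srf* at 152 CPM against 221, 204 and 183 CPM (adjusted p = 0.261 from edgeR).

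Of 15 other genes often read as output of ERK, 0 were called by edgeR's quasi-likelihood test, 3 had an unadjusted p-value under 0.05, and DESeq2 called 1 and limma 0. Over all genes edgeR called 13.8% and DESeq2 21.5%. These shares are of adjusted p-values, and none is given for the unadjusted counts. The median log2 fold change of the 15 genes was 0.18. The 3 genes, named after their values were seen, went both ways. The phosphatase gene *Dusp6* was at 6.26 CPM in WT and 1.25, 2.77 and 0.724 CPM in #1, #2 and #3 (adjusted p = 0.101 from edgeR). *Epha2* was at 92.3 CPM against 404, 123 and 265 CPM (adjusted p = 0.142 from edgeR), and *Lif* at 0.673 CPM against 4.41, 2.72 and 2.23 CPM (adjusted p = 0.0848 from edgeR). Primitive endoderm markers, read because ERK drives that lineage in the embryo, gave 0 calls among 5 tested by edgeR, DESeq2 and limma. Their summed level was 2.89 CPM in WT and 7.39, 5.94 and 5.01 CPM in #1, #2 and #3. The 3 with an unadjusted p-value under 0.05 in edgeR went both ways. *Gata4* had 17 counts in WT and 3, 0 and 3 in #1, #2 and #3. *Sox17* had 10 in WT and 34, 37 and 47, and *Dab2* had 0 in WT and 8, 22 and 9. Heat shock and stress genes, read as a sign of handling, gave 0 calls among 8 tested by edgeR, DESeq2 and limma, with 0 at an unadjusted p-value under 0.05.

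**Figure D4:**
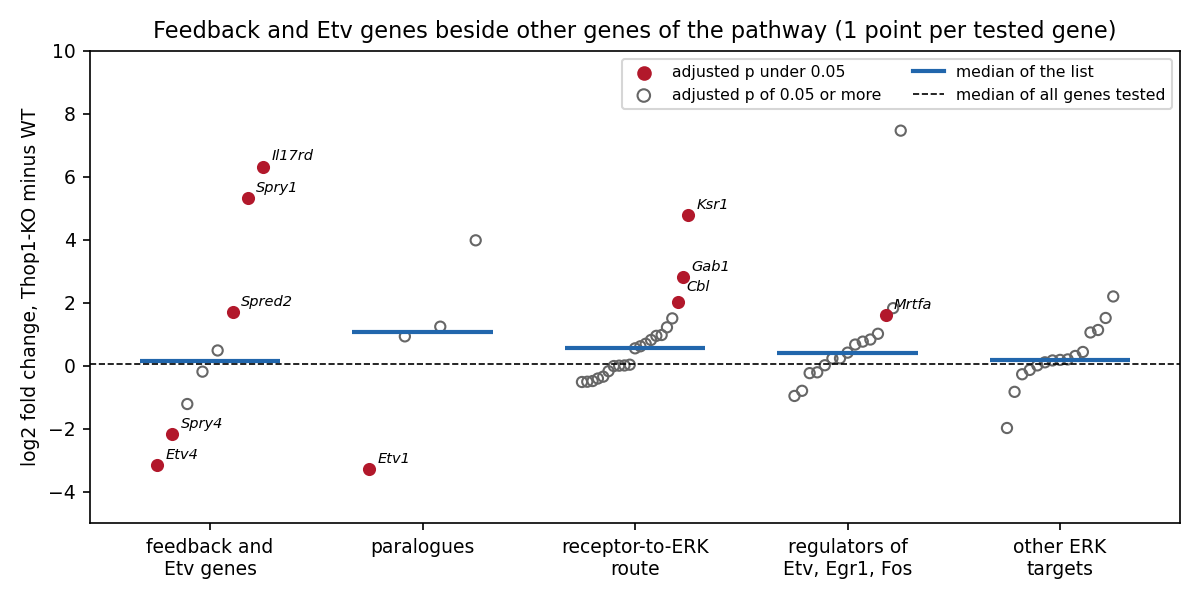
Log2 fold change (*Thop1*-KO minus WT) of the tested genes among the feedback and *Etv* genes and in the 4 pathway lists, 1 point per gene; red points are named and have an adjusted p-value under 0.05 in edgeR's quasi-likelihood test, blue lines are list medians, and the dashed line is the median of all genes tested. The highest open point, among the regulators, is *Nab2*, whose WT library has 0 counts, so that its fitted value depends on the prior count; the feedback and *Etv* genes spread from -3.15 to 6.32 around a median of 0.15.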

How the data were processed

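RNA-seq libraries of 1 WT and 3 *Thop1*-KO samples were analysed, grouped by the labels' genotype and clone number. Per the labels, the authors used HISAT2 2.0.5 and featureCounts 1.5.0-p3, after FASTX trimming given in their methods. The genome build and strand setting are not given in the sources used here. The authors deposited raw counts per gene. The deposited FPKM values equal these counts over exon length, times a library constant, as checked on the file.

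Counts were analysed in R 4.3.3 with edgeR 4.0.16: filterByExpr with a minimum count of 10, TMM scaling, and the quasi-likelihood F-test, with p-values adjusted by Benjamini and Hochberg's method over all genes tested and called at 0.05. Standard errors come from its F statistic. The p-values measure the spread between the 3 subclones, 1 library each, in which clonal and technical variation cannot be told apart. The script was tested on simulated data. No library was a copy of another: every pair gave a chi-square per degree of freedom of at least 22.4. Alternatives were DESeq2 1.42.0, 3 other scalings, 2 other filters, limma 3.58.1 on log2 FPKM with pseudocounts of 1 and 0.1, and leaving out each subclone. All 10 genes are named, with up to 4 called genes of each list, direct partners, and the 3 genes most like *Il17rd*. The genes and lists were chosen with earlier results of these data known. A gene of the route from the receptor to ERK is not reported here. Older symbols were matched through RefSeq. Python 3.11.15 and matplotlib 3.10.9 drew the figures. Promoter windows came from RefSeq (GRCr8).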

Additional observations from a re-analysis of the deposited data

How the results depend on the processing

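Of the 5 calls among the 8 tested genes, 5 were also made with DESeq2, with DESeq2's size factors, upper quartile scaling or library size only in edgeR, with no filter, and with limma on log2(FPKM + 1). With at least 10 counts in every library, 4 were called, since *Spry1* was not tested there. Limma on log2(FPKM + 0.1) called 3. With 1 subclone left out the number ran from 1 to 6. The total over all genes ran from 418 to 5572 with 1 subclone left out, and fewer libraries leave 1 residual degree of freedom. The 4 pathway lists together, whose alternatives were chosen after seeing the data, had 4, 21, 15 and 15 tested genes. They gave 5 calls, where edgeR called 13.8% of all genes tested, and 8 with DESeq2, which called 21.5%. They gave 2 with at least 10 counts in every library, 3 and 2 with limma on log2(FPKM + 1) and log2(FPKM + 0.1), and 1 to 19 with 1 subclone left out. The 19 came without #2, where 5572 of the 15028 genes tested were called. The marker lists gave 2 calls, *Esrrb* higher and *Nes* lower, but 4 with DESeq2, 1 with at least 10 counts in every library, and 2 to 11 with 1 subclone left out. The 11 also came without #2, and the cause was not tested. No log2 fold change of the 8 tested genes, or of a called gene of the lists, changed sign under the alternatives run. The median log2 fold change over all genes shifted by 0.115 with DESeq2 and 0.139 with no filter, both over 19903 genes, more than the 15028 otherwise tested. All comparisons rest on a single WT library, and *Egr1* and *Fos* had at most 9 counts in any library. No paired analysis was possible because WT has 1 library, whose labels carry no replicate number, so the groups cannot share 2 or more numbers. Dixon's outlier test was not applied, since no group has 4 libraries.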
